A study of Homo sapiens with 54 samples.

Results

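LN229 and LN319 are established human glioma cell lines, and the study uses LN319 as a *TRA2A*-dependent line and LN229 as a *TRA2A*-independent line. The question addressed here was how far the 2 lines already differed in gene expression before either TRA2 gene was perturbed. The libraries used were every sample of the 2 lines labelled Luc with Control KO, 3 of LN229 and 3 of LN319, which are 6 of the 54 samples of the series. All of them came from cells that overexpressed luciferase (Luc), a reporter enzyme with no role in splicing, and that had received Cas9 and a single guide RNA (sgRNA) to a control locus by lentivirus 7 days before collection. Neither *TRA2A* nor *TRA2B* was targeted or overexpressed in them, and the only labelled difference between the groups was the cell line. A second set of 6 libraries, from the same lines carrying *TRA2B* cDNA in place of luciferase (TRA2B-OE), also with Control KO, was used to see which differences between the lines also appeared in other libraries. Each class was represented by 1 line, so dependency and every other property of the lines cannot be told apart, and p-values describe the spread of these libraries, which the labels do not say came from separate cultures.

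TRA2A and TRA2B are paralogous proteins with an RNA recognition motif between arginine and serine rich regions. They bind GA-rich sequences, mostly in exons, and promote inclusion of the bound exon, together with the SR proteins, which have the same kind of RS region. RS regions are phosphorylated by the SRPK and CLK kinases. Both TRA2 genes carry a poison exon, whose inclusion sends the transcript to nonsense-mediated decay, so that TRA2 proteins can lower their own mRNA. Glioma lines in culture keep varying parts of astrocytic, oligodendrocyte precursor and mesenchymal programmes, and the p16 and receptor tyrosine kinase pathways are recurrently altered in the tumors they come from.

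The study cut control loci in the control cells, and which locus was cut in these libraries is not given in the sources used here. The guide to ROSA26, a control locus outside the TRA2 genes, is shown as an example of a control guide of the study, written 5′ to 3′ with the GG of the PAM in capitals:
ROSA26 sg1: gagtcgcttctcgattatgggcGG
This guide had 1 perfect match in hg38, at chr3:9396264-9396284 on the - strand, in an exon of *THUMPD3-AS1*.

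Expression is given as TPM, a normalized transcript abundance, rescaled so that each library sums to 1000000 over the genes that both tables name. TPM is a share of a library that is corrected for transcript length, so levels of different genes may be compared, but read depth is unknown from it. In bulk RNA, fewer cells of a type and less RNA per cell cannot be told apart. Libraries of a line resembled each other more than those of the other line, with Pearson correlations of log2 values of 0.955 to 0.965 within LN229, 0.970 to 0.972 within LN319 and 0.683 to 0.708 between the lines. Between 16739 and 18254 genes reached 1 TPM in a library. LN229 replicate 1 stood apart from the other two LN229 libraries. In it 247 of 9950 genes with a mean of at least 10 TPM differed more than 2-fold from the mean of the others, against 53 and 50 genes for LN229 replicates 2 and 3 and 37 to 42 of 10239 genes for the LN319 libraries. Counts without it are given below for several lists, and in the lists with no such count leaving it out moved the calls in each direction by at most 2 genes. Each line was deposited in a table of its own, so table and line cannot be told apart.

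A gene was tested when it reached 1 TPM in at least 3 of the 6 libraries, and it was called different where limma gave a Benjamini-Hochberg adjusted p under 0.05 over all genes tested and the lines differed by more than 1 on the log2 scale. Differences are given as LN319 minus LN229 on the scale of log2(TPM + 0.1), which understates the change of genes near 0, and a value in parentheses after a gene is this difference unless another quantity is named. Of 18620 genes tested, 7028 (37.7%) were called, 3575 (19.2%) higher in LN319 and 3453 (18.5%) higher in LN229, and the median difference of all genes was 0.02. The 3 libraries of one line did not overlap with the 3 of the other for 13626 genes (73.2%), so lack of overlap by itself does not single out a gene here. More than 8-fold differences were called for 1189 genes higher in LN319 and 1071 higher in LN229. Among 13382 protein-coding genes, 4880 (36.5%) were called. These shares are the background against which each group of genes is described below. A gene that was expressed in 1 line only also passed the filter and then had to differ, so high shares in lists of cell type genes are descriptive.

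*TRA2B* was 2.73-fold higher in LN229 in the fit, and *TRA2A* was not called different. *TRA2A*, at chr7:23504780-23532041 (- strand), was at 109.9, 116 and 116 TPM in the LN229 libraries and 105, 111 and 117 TPM in the LN319 libraries. The libraries of the 2 lines overlapped, with means of 114 ± 3.55 TPM and 111 ± 5.83 TPM (SD, n = 3). The log2 difference was -0.14 with a 95% interval of -0.31 to 0.02 (limma, adjusted p = 0.0978), and its sign turned to 0.051 (adjusted p = 0.502) when mitochondrially encoded genes were left out of the rescaling. *TRA2B*, at chr3:185914558-185938103 (- strand), was at 210.0, 242 and 244 TPM in the LN229 libraries and 93.8, 87 and 92.5 TPM in the LN319 libraries. All LN229 values were well above every LN319 value, with means of 232 ± 18.9 TPM and 91.1 ± 3.59 TPM (SD, n = 3). The log2 difference was -1.45 ± 0.084 (SE; limma, adjusted p = 1.39e-05). *TRA2B* was at rank 1305 of the 18620 genes by p-value and at rank 2489 by size among the 9187 genes with a difference below 0, so many genes differed more between the lines.

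The balance of the paralogs, which does not depend on the scaling between libraries, also differed between the lines. The ratio of *TRA2B* to *TRA2A* was 1.91, 2.08 and 2.11 in LN229 and 0.889, 0.784 and 0.790 in LN319, with means of 2.03 ± 0.106 and 0.821 ± 0.0591 (SD, n = 3). *TRA2B* therefore made up 67.0% of TRA2 transcripts in LN229 and 45.1% in LN319. The log2 ratio differed by -1.31, with no overlap, and the exact two-sided permutation p was 0.1, the smallest that 3 against 3 libraries can give. *TRA2A* and *TRA2B* summed to 319.9, 358 and 359 TPM in LN229 and to 199, 198 and 209.6 TPM in LN319. The sum was 346 ± 22.5 TPM in LN229 and 202 ± 6.39 TPM in LN319 (SD, n = 3), a log2 difference of -0.77 (exact two-sided permutation p = 0.1).

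**Figure D1:**
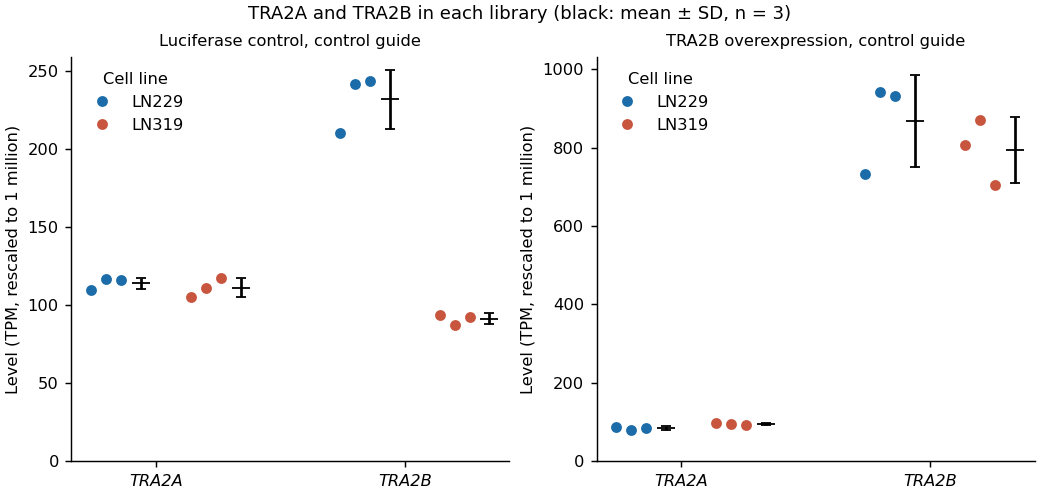
Level of TRA2A and TRA2B in TPM in each library of LN229 (blue) and LN319 (red), with luciferase (left) and with TRA2B overexpression (right, another scale), and the mean ± SD of 3 libraries in black. With luciferase, TRA2B is at 210.0 to 244 TPM in LN229 and at 87.0 to 93.8 TPM in LN319, while the TRA2A points of the 2 lines overlap.

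The 4 genes for which the study lists RT-PCR primers for splicing assays were also compared. *OFD1*, which encodes a centriolar satellite and basal body protein, was higher in LN319, at 33.9, 33.6 and 31.2 TPM in the LN319 libraries and 12.6, 11.1 and 9.08 TPM in the LN229 libraries (log2 difference 1.48, limma adjusted p = 1.08e-04). *CEP192*, a scaffold of centrosome maturation, had a difference of 0.47 (limma, adjusted p = 0.00238), *CHEK1*, the checkpoint kinase, one of 0.45 (adjusted p = 0.141), and *CNTRL*, a component of the mother centriole, one of 0.04 (adjusted p = 0.733), so none of these 3 was called. Gene level TPM does not resolve the exons themselves, and exon inclusion was not analysed here.

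Most genes of the splicing machinery were not called different between the lines, where a call requires a log2 difference above 1. Of 12 SR proteins, 2 were called higher in LN319 and 0 higher in LN229, with a median difference of 0.13. *SRSF10*, an SR protein that acts as a repressor when dephosphorylated, was at 290.0, 323 and 315 TPM in the LN319 libraries and 116, 143 and 139 TPM in the LN229 libraries (log2 difference 1.11, limma adjusted p = 8.24e-05). *SRSF12*, its close relative, was at 8.29, 8.9 and 9.43 TPM in the LN319 libraries and 0.136, 0.25 and 0.302 TPM in the LN229 libraries (log2 difference 4.71). *SRSF10* was abundant in both lines and higher in every LN319 library, while *SRSF12* was near silent in LN229. A further 5 SR proteins had an adjusted p under 0.05 but a log2 difference within 1, namely *SRSF4* (0.86), *SRSF11* (0.76), *SRSF5* (0.53), *SRSF6* (-0.97) and *SRSF8* (-0.87), the last 2 with more mRNA in LN229. *SRSF6* was at 89.5, 101 and 94.2 TPM in the LN229 libraries and 51.7, 53.6 and 51 TPM in the LN319 libraries, and without LN229 replicate 1 the SR protein list had 2 members called higher in LN319 and 1 higher in LN229. The remaining members, *SRSF1*, *SRSF2*, *SRSF3*, *SRSF7* and *SRSF9*, had adjusted p-values between 0.181 and 0.762.

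Of 9 kinases of SR proteins, *SRPK3* alone was called, higher in LN229. *SRPK3*, a kinase best known from muscle, was at 36.3, 20.8 and 24.2 TPM in the LN229 libraries and 1.46, 0.823 and 1.05 TPM in the LN319 libraries (log2 difference -4.58). The broadly expressed kinases showed smaller differences, from -0.74 for *SRPK2* and -0.55 for *CLK3* to 0.68 for *CLK2* and 0.73 for *DYRK1A*. Of 26 hnRNP proteins, *PTBP2*, the neural paralog of the splicing repressor PTBP1, was the only one called, higher in LN319 at 68.3, 70.5 and 62.4 TPM in the LN319 libraries and 23.9, 24.6 and 29.7 TPM in the LN229 libraries (log2 difference 1.26, limma adjusted p = 4.05e-05). The core spliceosome and exon definition list had 4 of 43 members called, all higher in LN319, with a median of 0.10. These were *PRPF8* (1.18), the central scaffold of the catalytic spliceosome, *LUC7L* (1.16), a U1 snRNP associated protein, *RBM25* (1.16) and *U2AF1* (1.07), the subunit that reads the 3′ splice site AG. *PRPF8* was at 228, 229 and 222 TPM in the LN319 libraries and 82.9, 94.5 and 101 TPM in the LN229 libraries. Without LN229 replicate 1 the list had 3 members called higher in LN319 and 1 higher in LN229 with a median of -0.02. *U2AF1* then fell below the size required, at 0.93. With all libraries and no minimum difference, 16 of the 43 had an adjusted p under 0.05 and were higher in LN319, and 12 higher in LN229. These counts were 7 and 6 for the 26 hnRNP proteins, and 6307 and 6246 for all 18620 genes tested. Among 18 factors of nonsense-mediated decay, 1 was called in each direction, *CASC3* (1.18), of the exon junction complex, and *MAGOHB* (-1.33), a copy of its core subunit MAGOH.

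Splicing regulators of restricted tissue expression were examined as a list of their own. Of 33 listed, 24 were tested, 7 were called higher in LN319 and 4 higher in LN229, with a median of 0.57. *MSI1*, an RNA binding protein of neural progenitors, was at 39.9, 43.4 and 39.7 TPM in the LN319 libraries and 0.111, 0.0377 and 0.242 TPM in the LN229 libraries. *ELAVL3*, a neuronal RNA stabilizing and splicing factor, was at 20.1, 32.6 and 30.9 TPM in the LN319 libraries and 0.152, 0.149 and 0.82 TPM in the LN229 libraries, and *NOVA1*, a neuronal splicing regulator, at 10.1, 11.2 and 12 TPM in the LN319 libraries and 0.208, 0.191 and 0.32 TPM in the LN229 libraries. All 3 were near 0 in every LN229 library, and their log2 differences were 7.50, 6.06 and 4.97. *MBNL3*, the muscleblind family member of proliferating cells, had the opposite pattern, at 8.77, 7.79 and 9.47 TPM in the LN229 libraries and 0.201, 0.136 and 0.338 TPM in the LN319 libraries (log2 difference -4.88). All 11 of these calls were also made in the TRA2B-OE libraries, as were the 2 of SR proteins and the 4 of the core spliceosome.

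**Figure D2:**
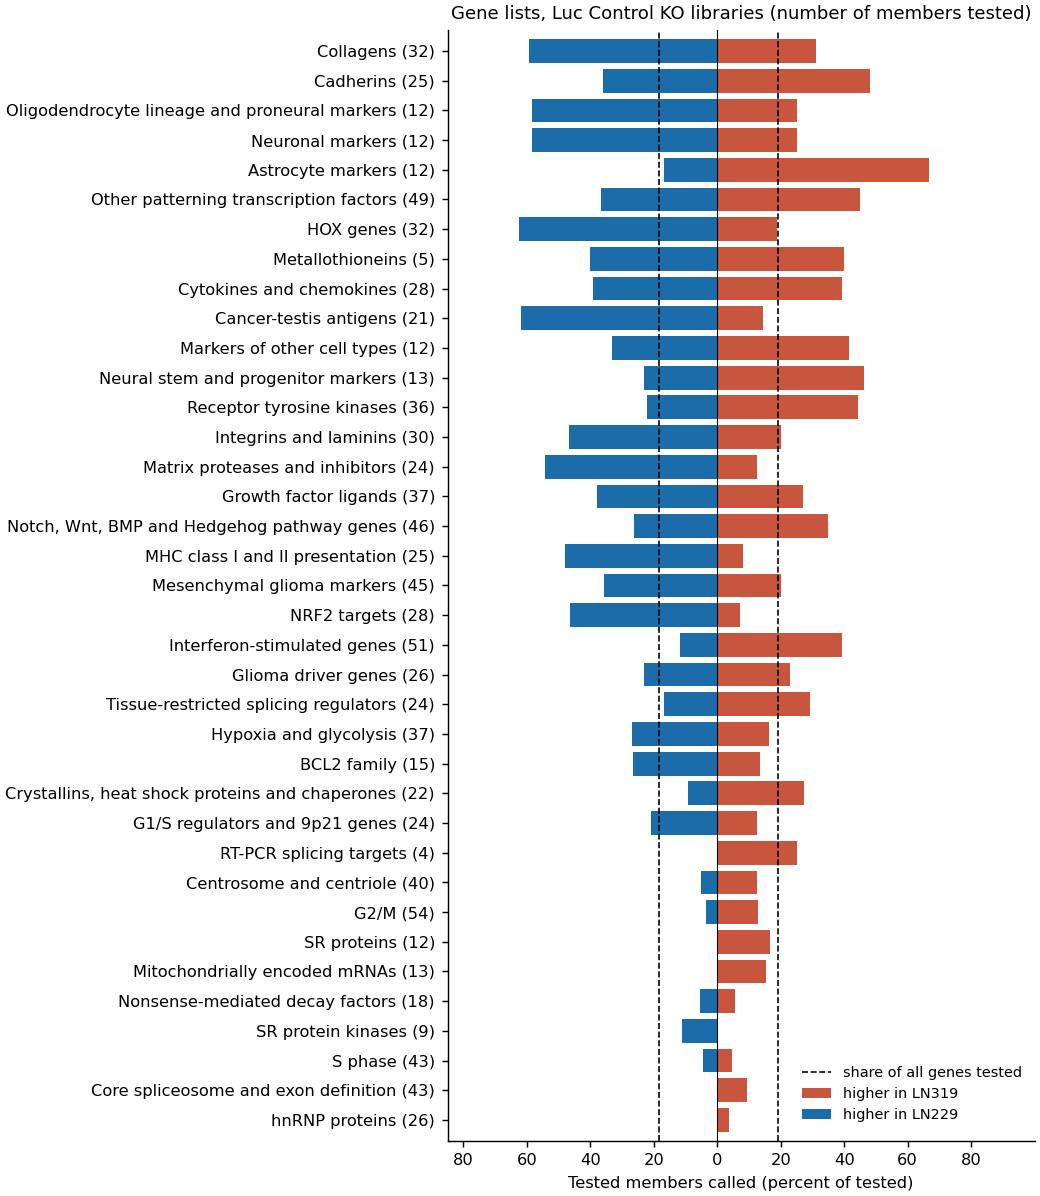
For each gene list (rows, number of members tested in brackets), the percent of tested members called higher in LN319 (red, to the right) and higher in LN229 (blue, to the left), with dashed lines at the shares of all genes tested, 19.2% and 18.5%. The hnRNP proteins, the core spliceosome, the kinases of SR proteins and the S phase genes are among the lists with the lowest shares, with collagens, cadherins and lineage markers among the highest.

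Cell cycle genes were compared next, since LN229 replicate 1 departed from the other libraries in them. The 43 S phase genes summed to 2049.7 TPM in that library, 3340.2 and 3367 TPM in LN229 replicates 2 and 3, and 3048 to 3324 TPM in LN319. The 54 G2/M genes summed to 4379 TPM in it, 7449.9 and 7452 TPM in the other two, and 7566 to 7834 TPM in LN319. LN229 replicate 1 alone lay well below the other 5 libraries in both sums. With all libraries 2 S phase genes were called in each direction and 7 G2/M genes were called higher in LN319 and 2 higher in LN229, and without LN229 replicate 1 the counts were 1 and 5 for S phase and 4 and 5 for G2/M. *TOP2A*, the topoisomerase that resolves chromosomes before division, was at 391, 410.0 and 433 TPM in the LN319 libraries and 79.4, 139.6 and 149 TPM in the LN229 libraries (log2 difference 1.69). *PSRC1*, a spindle protein, was at 237, 218 and 193 TPM in the LN319 libraries and 41, 63 and 59.7 TPM in the LN229 libraries (log2 difference 1.89), and *TTK*, the spindle checkpoint kinase MPS1, at 77.4, 82 and 80 TPM in the LN319 libraries and 20.1, 34.4 and 36.5 TPM in the LN229 libraries. In these 3 genes every LN319 library was above every LN229 library. *CKAP2*, a microtubule binding protein of mitosis, went the other way, at 32.2, 53 and 60.2 TPM in the LN229 libraries and 19.8, 22.5 and 21.1 TPM in the LN319 libraries (log2 difference -1.25). Of the S phase genes, *GMNN*, the inhibitor of origin licensing, was higher in LN319 (1.31), and *RRM2* (-1.15) and *TYMS* (-1.02), both of nucleotide synthesis, were higher in LN229. *CHAF1B*, of chromatin assembly factor 1, was called in LN319 (1.14) but dropped to 0.82 without LN229 replicate 1.

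Of 40 centrosome and centriole genes, 5 were called higher in LN319 and 2 higher in LN229, with a median of 0.35. Without LN229 replicate 1 the counts were 3 and 3, with a median of 0.24. The list summed to 1068 TPM in that library and 1334 and 1410 TPM in LN229 replicates 2 and 3. *CNTROB*, a daughter centriole protein, was at 176, 169.6 and 152 TPM in the LN319 libraries and 38.3, 57.7 and 70.7 TPM in the LN229 libraries (log2 difference 1.51), and *PCM1*, the scaffold of centriolar satellites, at 139, 145 and 135 TPM in the LN319 libraries and 54.6, 51.4 and 59.7 TPM in the LN229 libraries (1.23). *CEP63*, of centriole duplication, was at 33.9, 37 and 37 TPM in the LN229 libraries and 13.1, 14.2 and 14.2 TPM in the LN319 libraries (-1.48). *OFD1*, described above, belongs to this list too. With 17.5% of members called, the list lay below the 37.7% of all genes. Calls require a log2 difference above 1. With no minimum difference and LN229 replicate 1 included, 21 of the 40 had an adjusted p under 0.05 and were higher in LN319, and 6 higher in LN229. For all 18620 genes tested these counts were 6307 and 6246.

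**Figure D3:**
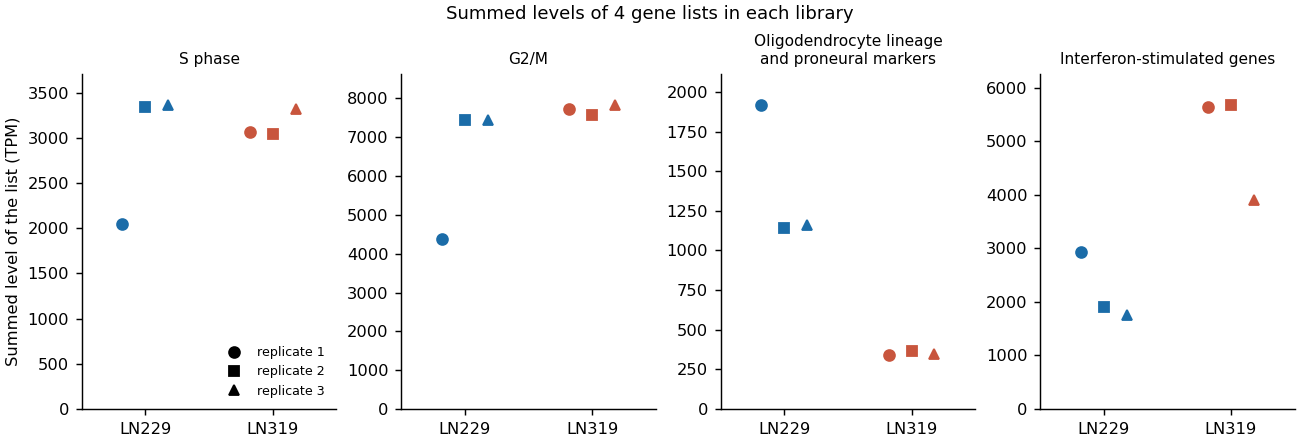
Summed TPM of the S phase, G2/M, oligodendrocyte lineage and interferon-stimulated gene lists in each library, with the replicate given by the symbol. LN229 replicate 1 (blue circle) is the lowest library for S phase and G2/M and the highest for the oligodendrocyte lineage list, and LN319 replicate 3 (red triangle) is lower than the other two LN319 libraries for interferon-stimulated genes.

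The regulators of the G1/S transition held some of the widest differences in the comparison. *CDKN2A*, at chr9:21967752-21995301 (- strand), encodes the CDK4/6 inhibitor p16INK4a among its products, whose transcripts gene level TPM does not separate. It was at 1524, 1386 and 1401 TPM in LN319 and 0, 0 and 0.388 TPM in LN229. Its neighbour *CDKN2B*, for the inhibitor p15INK4b, was at 60.5, 62.1 and 61.1 TPM in the LN319 libraries and 0.0157, 0 and 0 TPM in the LN229 libraries. *CDKN2C*, for p18INK4c on another chromosome, at chr1:50960745-50974634 (+ strand), was at 202, 190.1 and 194 TPM in LN319 and was listed at 0 in all 3 LN229 libraries. Thus the genes of 3 of the 4 INK4 inhibitors were near or at 0 in LN229 and well expressed in LN319. The last of these genes, *CDKN2D*, had a difference of 0.64 and was not called. *MTAP*, the methionine salvage enzyme next to *CDKN2A* that is often lost with it, was expressed in both lines, at 59.5, 50.7 and 58 TPM in the LN229 libraries and 41.7, 42.6 and 48.3 TPM in the LN319 libraries. Of the genes of the cyclin D pathway, which these inhibitors act on, *CCND1*, *CDK4* and *RB1* were called higher in LN229, while *CDK6* and *CCND3* were not called. *CDK6* was at 19.3, 22.3 and 25.1 TPM in the LN229 libraries and 10.5, 12.7 and 12.6 TPM in the LN319 libraries, just short of the size required, and *CCND3* had a difference of 0.09. *CCND1*, for cyclin D1, was at 317, 429 and 470.3 TPM in the LN229 libraries and 9.06, 11.6 and 10.2 TPM in the LN319 libraries (log2 difference -5.38, limma adjusted p = 1.38e-06). *CDK4* was at 377, 431 and 423 TPM in the LN229 libraries and 197, 193 and 200.3 TPM in the LN319 libraries (-1.16), and *RB1*, the tumor suppressor that *CDK4* phosphorylates, at 28.4, 31.2 and 33.3 TPM in the LN229 libraries and 10.8, 14.7 and 9.95 TPM in the LN319 libraries (-1.50). *CDKN1A*, for the CDK inhibitor p21, was at 343, 345 and 325 TPM in the LN229 libraries and 37.8, 37.3 and 33.2 TPM in the LN319 libraries (-3.33, limma adjusted p = 7.57e-07), higher in every LN229 library. Its relative *CDKN1C* (-1.76) was also called higher in LN229, but at low means of 1.59 TPM in LN229 and 0.457 TPM in LN319. On the scale of log2(TPM + 1) its difference was -0.89, short of the size required. *CDKN1B* had a difference of 0.20 and was not called. In all, 3 of 24 tested members of this list were called higher in LN319 and 5 higher in LN229. That is 33.3% of the members, below the 37.7% of all genes, so the list stood out by the size of some differences and not by their number. *E2F1* (-0.27), *CCNE1* (0.20), *CDK2* (0.07) and *CCNA2* (-0.22) were among those not called.

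Among 26 tested genes that are recurrently altered in glioma, 6 were called in each direction. *PDGFRA*, the receptor of platelet-derived growth factors, was at 174, 204 and 181 TPM in the LN319 libraries and 6.32, 3.65 and 4.07 TPM in the LN229 libraries (log2 difference 5.22). *EGFR* was at 8.71, 17.2 and 19.1 TPM in the LN229 libraries and 4.25, 6.44 and 5.17 TPM in the LN319 libraries (-1.54), *FGFR3* at 11.5, 12.6 and 13.4 TPM in the LN229 libraries and 3.17, 4.72 and 3.09 TPM in the LN319 libraries (-1.87) and *PIK3R1*, the regulatory subunit of PI3 kinase, at 21.9, 14.7 and 16.6 TPM in the LN229 libraries and 4.32, 6.41 and 5.86 TPM in the LN319 libraries (-1.77). *MDM2*, a ubiquitin ligase, was at 226, 218 and 222 TPM in the LN229 libraries and 46.3, 43.6 and 46.1 TPM in the LN319 libraries (-2.40), while *MDM4*, its relative (1.07), and *NF1*, the RAS GTPase activating protein (1.33), were higher in LN319. *ATRX* (0.25), *TERT* (-0.27), *BRAF* (-0.17) and *MET* (-0.69) were not called. So the receptors split between the lines, with *PDGFRA* in LN319 and *EGFR* and *FGFR3* in LN229. Sequence changes in these genes were not analysed here. In the *BCL2* family, 2 of 15 members were called higher in LN319 and 4 higher in LN229, a share of 40.0% that is near the 37.7% of all genes. *PMAIP1*, the BH3-only protein NOXA, was higher in LN229, at 42.3, 70 and 67 TPM in the LN229 libraries and 0.309, 0.202 and 0.416 TPM in the LN319 libraries (log2 difference -7.29). The calls also included *BCL2A1* (-7.22) and *BCL2* (-2.55), both survival proteins, higher in LN229, and *BIK* (4.33), a BH3-only protein, higher in LN319.

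Marker genes of glial lineages differed in most members. *GFAP*, the intermediate filament that defines astrocytes, was low in both lines, at 2.26, 3.34 and 3.29 TPM in the LN229 libraries and 1.83, 2.92 and 1.9 TPM in the LN319 libraries, and was not called (-0.52, limma adjusted p = 0.122). Of 16 astrocyte markers, 12 were tested, and 8 were called higher in LN319 and 2 higher in LN229, with a median of 1.97. *SOX9*, a transcription factor of glial fate, was at 39.1, 39.6 and 35.3 TPM in the LN319 libraries and 0.481, 0.337 and 0.429 TPM in the LN229 libraries (log2 difference 6.12). *GLUL*, for glutamine synthetase, was at 294, 299.9 and 307 TPM in the LN319 libraries and 46.8, 37.8 and 42.5 TPM in the LN229 libraries (2.72), *GJA1*, for the gap junction protein connexin 43, at 119, 127 and 120.4 TPM in the LN319 libraries and 22.9, 18 and 19.7 TPM in the LN229 libraries (2.49), and *CLU*, for clusterin, at 651, 634 and 533 TPM in the LN319 libraries and 132, 102 and 101 TPM in the LN229 libraries (2.33). These genes were expressed in both lines except *SOX9*, which was below 1 TPM in LN229. *AQP4*, the water channel of astrocyte endfeet, and *MLC1* reached only 1.94, 2.59 and 1.78 TPM and 8.19, 9.39 and 10.8 TPM in LN319. *S100B*, a calcium binding protein of astrocytes and of Schwann and oligodendrocyte precursor cells, ran against the list, at 869, 288 and 267 TPM in the LN229 libraries and 0.316, 0.472 and 0.298 TPM in the LN319 libraries (-9.89). *SLC1A2*, *SLC1A3*, *ALDH1L1* and *HEPACAM*, which also define astrocytes, did not reach the filter.

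Genes of the oligodendrocyte lineage were mostly higher in LN229. Of 17, 12 were tested, and 7 were called higher in LN229 and 3 higher in LN319, with a median of -4.02. *SOX10*, the transcription factor that directs oligodendrocyte and neural crest fates, was at 1024, 709 and 725 TPM in the LN229 libraries and 0.0246, 0 and 0.0599 TPM in the LN319 libraries (log2 difference -12.71). *OLIG2*, a factor of the oligodendrocyte lineage, was at 14.8, 7.69 and 8.12 TPM in the LN229 libraries and 0.00963, 0.0219 and 0 TPM in the LN319 libraries, and *CSPG4*, for the precursor marker NG2, at 129, 71.7 and 70.1 TPM in the LN229 libraries and 1.23, 1.07 and 0.836 TPM in the LN319 libraries. All 3 were higher in LN229 replicate 1 than in the other two LN229 libraries and near 0 in LN319, except *CSPG4*, which was near 1 TPM there. The list summed to 1918 TPM in LN229 replicate 1, 1140.0 and 1161 TPM in replicates 2 and 3, and 340.2 to 367 TPM in LN319. *PDGFRA*, *MBP* and *DLL3* were the members higher in LN319. Without LN229 replicate 1 the counts were the same, 7 and 3, with a median of -3.54. *MIA*, a secreted protein of melanoma and cartilage, *S100A1* and *SERPINA3*, a protease inhibitor of reactive glia, were among the 12 widest differences higher in LN229 and had their highest value in replicate 1 too, *SERPINA3* at 951, 309 and 274 TPM and *MIA* at 1469.6, 913 and 768 TPM.

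Neural stem and neuronal markers were divided between the lines. Of 20 stem and progenitor markers, 13 were tested, 6 were called higher in LN319 and 3 higher in LN229. *PAX6*, a transcription factor of radial glia, was at 16, 21.6 and 14.9 TPM in the LN319 libraries and 0.0527, 0.142 and 0.333 TPM in the LN229 libraries (6.03). *NES*, for the progenitor filament nestin, was at 269.9, 285 and 298 TPM in the LN229 libraries and 6.71, 7.25 and 9.59 TPM in the LN319 libraries (-5.28), and *FABP7*, the fatty acid binding protein of radial glia, at 199, 63.1 and 56.1 TPM in the LN229 libraries and 0.436, 0.0913 and 0.263 TPM in the LN319 libraries (-8.15). Of 21 neuronal markers, 12 were tested, 7 were called higher in LN229 and 3 higher in LN319. *MAP2*, a dendritic microtubule protein, was at 41.9, 16.7 and 18.5 TPM in the LN229 libraries and 0.105, 0.023 and 0.0535 TPM in the LN319 libraries, and *SYT1*, a calcium sensor of synaptic vesicles, at 14.6, 17 and 18.1 TPM in the LN229 libraries and 0.00869, 0.00894 and 0.0174 TPM in the LN319 libraries. *INA*, a neuronal intermediate filament, was at 14.2, 12.7 and 14.5 TPM in the LN319 libraries and 0, 0 and 0.0496 TPM in the LN229 libraries. Of the genes named here, all but *NES* were below 1 TPM in every library of the line with the lower level.

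Mesenchymal glioma markers were called higher in LN229 for 16 and in LN319 for 9 of 45 tested genes, with a median of -0.73, and for 21 and 9 without LN229 replicate 1. *TWIST1* and *TWIST2*, transcription factors of mesenchymal cells, were at 74.5, 46.1 and 48 TPM and 22.6, 26.2 and 23.5 TPM in LN229 and were listed at 0 in every LN319 library. *TGFBI*, a matrix protein induced by TGF-beta, was at 312, 414 and 409.9 TPM in the LN229 libraries and 5.29, 5.1 and 5.91 TPM in the LN319 libraries (log2 difference -6.20). *CD44*, the hyaluronan receptor, was higher in LN319 instead, at 2135, 2277 and 2132 TPM in the LN319 libraries and 559, 714 and 723 TPM in the LN229 libraries (1.61), as was *PLAU*, for urokinase (6.11). Of 23 markers of cell types other than neural ones, 12 were tested, with 5 called higher in LN319 and 4 higher in LN229, and all 23 summed to 296 to 330.1 TPM in LN229 and 479 to 488 TPM in LN319. *CDH1*, for E-cadherin of epithelial cells, was at 121, 137 and 125 TPM in the LN319 libraries and 0.265, 0.135 and 0.308 TPM in the LN229 libraries (8.52), and *KRT5* and *KRT19*, epithelial keratins, at 5.69, 5.33 and 3.61 TPM and 9.53, 9.39 and 7.95 TPM in LN319 with less than 1 TPM in LN229. *ACTA2*, smooth muscle actin, was higher in LN229, at 62.4, 44.3 and 44.7 TPM in the LN229 libraries and 5.59, 6.65 and 6.96 TPM in the LN319 libraries (-3.05). *EPCAM*, the defining surface marker of epithelial cells, stayed at 0.337, 0.127 and 0.328 TPM in LN229 and 0.403, 0.388 and 0.438 TPM in LN319, and the T cell gene *CD3E* and the myeloid gene *AIF1* at or near 0. *GFAP* and the 4 untested astrocyte markers named above were low in both glioma lines.

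**Figure D4:**
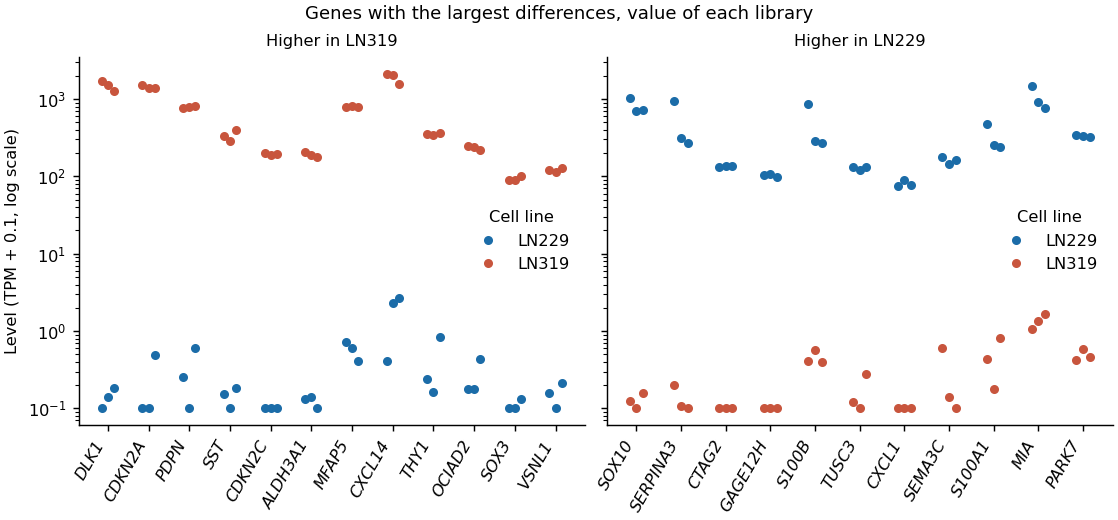
Level in each library (TPM + 0.1, log axis) of the protein-coding genes with the largest log2 differences among those with a mean of at least 10 TPM in the higher line, 12 higher in LN319 and 11 of the 12 higher in LN229, with LN229 in blue and LN319 in red. In each of these genes the libraries of one line lie far above those of the other, and the lower line is below 1 TPM in every library except for CXCL14 in LN229 and MIA in LN319.

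Most of the protein-coding genes with the widest differences were expressed in 1 line and below 1 TPM in every library of the other. *DLK1*, a secreted and membrane-bound relative of Notch ligands on an imprinted locus at chr14:100725705-100738224 (+ strand), was at 1719, 1526 and 1287 TPM in LN319 and 0, 0.0386 and 0.0836 TPM in LN229 (log2 difference 13.36). *PDPN*, for the mucin-like protein podoplanin, was at 773, 787 and 819 TPM in the LN319 libraries and 0.152, 0 and 0.507 TPM in the LN229 libraries, and *THY1*, a surface glycoprotein of neurons and fibroblasts, at 355, 345 and 359.6 TPM in the LN319 libraries and 0.143, 0.065 and 0.732 TPM in the LN229 libraries. *SST*, for the neuropeptide somatostatin, was at 333, 288 and 399.6 TPM in the LN319 libraries and 0.0526, 0 and 0.0847 TPM in the LN229 libraries, and *ALDH3A1*, an aldehyde dehydrogenase of the cornea, at 204, 188 and 177 TPM in the LN319 libraries and 0.0339, 0.04 and 0 TPM in the LN229 libraries. All 5 were abundant in each LN319 library and below 1 TPM in each LN229 library. *MFAP5*, *CXCL14*, *OCIAD2*, *SOX3* and *VSNL1* completed the 12 genes higher in LN319, with *CDKN2A* and *CDKN2C*. In the other direction stood *SOX10*, *SERPINA3*, *S100B*, *S100A1* and *MIA*, described above, and 6 further genes. *PARK7*, a ubiquitously expressed protein of the response to oxidative stress, was at 347, 334 and 323 TPM in the LN229 libraries and 0.323, 0.49 and 0.359 TPM in the LN319 libraries (-9.52, limma adjusted p = 3.50e-07). *TUSC3*, a subunit of the oligosaccharyltransferase complex, was at 132, 122 and 131 TPM in the LN229 libraries and 0.0225, 0 and 0.181 TPM in the LN319 libraries, and *SEMA3C*, a secreted guidance factor, at 176, 146 and 164 TPM in the LN229 libraries and 0.509, 0.0419 and 0 TPM in the LN319 libraries. *CXCL1*, a chemokine of neutrophils, was at 74.8, 89.6 and 77.8 TPM in LN229, and the cancer-testis genes *CTAG2* and *GAGE12H* were at 134, 135 and 135 TPM and 104, 108 and 99.5 TPM, and all 3 were listed at 0 in LN319. *GAGE12H* and *CTAG2* have near-identical copies, so their own share of the reads is uncertain.

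Ranked by TPM in place of log2, the largest calls were of other genes. Higher in LN319 were *MT-RNR2*, *MT-ND1* and *MT-CYB*, which mitochondrial DNA encodes, *TMSB4X*, for the actin binding peptide thymosin beta 4, and *RNA5-8S5*, a ribosomal RNA gene with many copies. *RNA5-8S5* was not called in the TRA2B-OE libraries (0.76, limma adjusted p = 0.11), and all libraries were made from poly(A) RNA. *TMSB4X* was at 3975, 3761 and 4233 TPM in the LN319 libraries and 471, 636 and 546 TPM in the LN229 libraries (2.76). The mitochondrial genome supplied 12.1 to 12.8% of all TPM in LN319 and 6.11 to 7.97% in LN229, and of its 13 mRNAs 2 were called, both higher in LN319, with a median of 0.77. Since TPM are shares, the values above are affected by these genes, while the tested differences were scaled between libraries. Higher in LN229 were *MT2A*, a metallothionein, *GAPDH*, the glycolytic enzyme often used as a reference, *LGALS1*, for galectin 1, *CD74* and *SPARC*, a matrix protein. *GAPDH* was at 7077, 6454 and 6297 TPM in the LN229 libraries and 2658, 2459.9 and 2795 TPM in the LN319 libraries (-1.43), and *SPARC* at 5383, 3303 and 3521 TPM in the LN229 libraries and 453, 396 and 435 TPM in the LN319 libraries (-3.32).

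The extracellular matrix and its receptors were a group with many differences. Of 32 collagens tested, 19 were called higher in LN229 and 10 higher in LN319, with a median of -1.52, and the list summed to 2618 to 2866 TPM in LN229 and 987 to 1080.2 TPM in LN319. *COL9A3*, a chain of the cartilage collagen IX, was at 796, 662 and 624 TPM in the LN229 libraries and 4.51, 6.83 and 5.9 TPM in the LN319 libraries (log2 difference -7.01), and *COL12A1*, a fibril-associated collagen, at 69.4, 102 and 107 TPM in the LN229 libraries and 0.559, 0.407 and 0.662 TPM in the LN319 libraries (-7.27). *COL5A2*, of the fibrillar collagen V, was the one named with the opposite order, at 146, 168 and 187 TPM in the LN319 libraries and 1.45, 1.13 and 0.864 TPM in the LN229 libraries (6.98). Of 30 integrins and laminins, 14 were called higher in LN229 and 6 higher in LN319. *ITGA4*, the alpha subunit of the *VCAM1* receptor, was at 81, 77.6 and 95.3 TPM in the LN229 libraries and 0.0727, 0.0706 and 0.0891 TPM in the LN319 libraries (-8.97), and *ITGB3*, the beta subunit of the vitronectin receptor, at 143, 79.4 and 86.9 TPM in the LN229 libraries and 0.264, 0.345 and 0.282 TPM in the LN319 libraries (-8.07). The 4 members with the widest differences, which include *ITGA1* and *ITGA9*, were all higher in LN229. Of 24 matrix proteases and inhibitors, 13 were called higher in LN229 and 3 higher in LN319. *ADAMTS12* (-6.30), *ADAMTS7* (-5.70) and *MMP11* (-5.40) were higher in LN229, and *PLAU*, at 56.6, 57.1 and 58.8 TPM in the LN319 libraries and 0.747, 0.659 and 0.627 TPM in the LN229 libraries, was higher in LN319. Cadherins were called in both directions, 12 of 25 higher in LN319 and 9 higher in LN229. Next to *CDH1*, these included *PCDH1* (-8.90), *CDH19* (-8.40), a cadherin of Schwann cell precursors, and *CDH11* (-8.04), a mesenchymal cadherin, all higher in LN229.

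Receptor tyrosine kinases were called higher in LN319 for 16 and in LN229 for 8 of 36 tested. *NTRK3*, the receptor of neurotrophin 3, was at 64.9, 69.7 and 75.2 TPM in the LN319 libraries and 0.0469, 0.295 and 0.262 TPM in the LN229 libraries (log2 difference 7.90), and *FGFR2* at 49.7, 59.2 and 49.5 TPM in the LN319 libraries and 0.086, 0.165 and 0.989 TPM in the LN229 libraries (7.04). *FLT1*, a VEGF receptor, was at 56.2, 49.5 and 53.2 TPM in the LN229 libraries and 0.0663, 0.0666 and 0.0235 TPM in the LN319 libraries (-8.53), and *EPHA3*, an ephrin receptor, at 29.9, 18.7 and 19.7 TPM in the LN229 libraries and 0.0463, 0.0651 and 0.098 TPM in the LN319 libraries (-7.12). Of 37 ligands, 14 were called higher in LN229 and 10 higher in LN319. *PDGFA*, a ligand of *PDGFRA*, was at 104, 66.4 and 63.9 TPM in the LN229 libraries and 0.232, 0.359 and 0.441 TPM in the LN319 libraries (-7.55), so this ligand and its receptor were high in different lines. *GDNF* was at 124, 75.2 and 79.5 TPM in the LN229 libraries and 0.094, 0.0739 and 0.102 TPM in the LN319 libraries (-8.98), and *ARTN*, another member of the *GDNF* family, at 551, 523 and 438 TPM in the LN319 libraries and 5.69, 6.2 and 6 TPM in the LN229 libraries (6.27). In the Notch, Wnt, BMP and Hedgehog list, 16 of 46 were called higher in LN319 and 12 higher in LN229. The ligands *WNT7B* (7.76) and *JAG2* (7.21) and the Wnt inhibitor *SFRP2* (8.40) were higher in LN319, and *LEF1* (-6.79), a transcription factor of the Wnt pathway, was higher in LN229 at 75.8, 55 and 61.3 TPM in the LN229 libraries and 0.65, 0.596 and 0.347 TPM in the LN319 libraries.

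Interferon-stimulated genes were called higher in LN319 for 20 and in LN229 for 6 of 51, with a median of 0.66, and for 25 and 5 without LN229 replicate 1. The list summed to 2931, 1907 and 1760.4 TPM in LN229 and to 5633, 5681 and 3910.1 TPM in LN319, so that the lowest LN319 library was above the highest LN229 library, and the spread within each line was wide. *IFI27* was at 432, 418 and 269.7 TPM in the LN319 libraries and 9.35, 5.75 and 4.14 TPM in the LN229 libraries (log2 difference 5.78), *MX1*, an antiviral GTPase, at 108, 119.9 and 50.9 TPM in the LN319 libraries and 4.2, 6.31 and 5.12 TPM in the LN229 libraries (3.95), and *IFITM1*, a membrane protein that restricts viral entry, at 423, 479 and 259 TPM in the LN319 libraries and 50.4, 12.8 and 9.3 TPM in the LN229 libraries (4.25). *IFIT1*, a sensor of foreign RNA, was at 32.4, 31.1 and 17.7 TPM in the LN319 libraries and 10.7, 2.5 and 2.09 TPM in the LN229 libraries, and LN319 replicate 3 held the lowest LN319 value of it. Genes of antigen presentation had the opposite order, with 12 of 25 called higher in LN229 and 2 higher in LN319 and a median of -1.0. *CD74*, the invariant chain of MHC class II, was at 4219.8, 3416 and 3552 TPM in the LN229 libraries and 19.9, 17.7 and 17 TPM in the LN319 libraries (-7.77), *HLA-DRA* at 1397, 1097 and 1075 TPM in the LN229 libraries and 10.7, 10.6 and 8.98 TPM in the LN319 libraries (-6.97) and *HLA-DQA1* at 209.5, 171 and 169 TPM in the LN229 libraries and 0.414, 0.353 and 0.532 TPM in the LN319 libraries (-8.53). The class II genes were thus among the abundant mRNAs of LN229. HLA genes vary between people and resemble each other, so the reads of 1 of them can be counted to another. Cytokines and chemokines split evenly, 11 of 28 in each direction. *IL18*, a cytokine of the IL-1 family, at 72.9, 74.4 and 69.3 TPM in the LN319 libraries and 0.0876, 0.133 and 0.336 TPM in the LN229 libraries, and *CXCL14*, at 2119, 2019 and 1564 TPM in the LN319 libraries and 0.31, 2.22 and 2.56 TPM in the LN229 libraries, were higher in LN319, and *IL16* (-7.19) was higher in LN229.

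Genes that record embryonic position were divided between the lines. Of 32 HOX genes tested, 20 were called higher in LN229 and 6 higher in LN319, with a median of -1.62, while the list summed to 401 to 445 TPM in LN229 and 756 to 839 TPM in LN319, so count and sum had opposite orders. *HOXC13* was at 19, 25.3 and 26.7 TPM in the LN229 libraries and 0.142, 0.199 and 0.163 TPM in the LN319 libraries (log2 difference -6.55), *HOXD8* at 15.4, 11.8 and 12.7 TPM in the LN229 libraries and 0.295, 0.286 and 0.153 TPM in the LN319 libraries (-5.39) and *HOXB5* at 10.6, 11.2 and 10.9 TPM in the LN229 libraries and 0.407, 0.21 and 0.251 TPM in the LN319 libraries (-4.94). *HOXB4* was at 55.8, 54.1 and 55 TPM in the LN319 libraries and 1.05, 1.38 and 1.14 TPM in the LN229 libraries (5.32), although it lies in the same cluster as *HOXB5*. Of 49 other patterning factors tested, 22 were called higher in LN319 and 18 higher in LN229, with *BARX1* (7.88) and *NKX2-5* (6.41) higher in LN319 and *IRX1* (-7.01) and *GATA6* (-6.40) higher in LN229. Of 43 cancer-testis antigens, 21 were tested, 13 were called higher in LN229 and 3 higher in LN319. *MAGEA11* (-6.96) and *MAGEA10* (-6.60) were higher in LN229, and *MAGEC2*, at 30.2, 29.8 and 26.4 TPM in LN319, was listed at 0 in all LN229 libraries.

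Stress and metabolic genes completed the lists. Of 28 tested NRF2 targets, 13 were called higher in LN229 and 2 higher in LN319, with a median of -0.80. *NQO1*, a quinone reductase, was at 800.5, 576 and 587 TPM in the LN229 libraries and 14.5, 13.6 and 16.4 TPM in the LN319 libraries (log2 difference -5.55, limma adjusted p = 9.74e-07), and *AKR1C1*, an aldo-keto reductase, at 90.8, 65.5 and 67.2 TPM in the LN229 libraries and 1.43, 1.47 and 1.31 TPM in the LN319 libraries (-5.72). *AKR1C2* (-2.94) and *AKR1C3* (-4.68) had the same direction, and reads can be shared among these near-identical genes. Of 37 hypoxia and glycolysis genes, 10 were called higher in LN229 and 6 higher in LN319. *SLC16A3*, the lactate exporter MCT4, was at 60.6, 72.9 and 74.6 TPM in the LN229 libraries and 6.85, 8 and 6.1 TPM in the LN319 libraries (-3.40), *PFKFB4*, which sets glycolytic flux, at 75, 113 and 115 TPM in the LN229 libraries and 9.71, 10.9 and 9.39 TPM in the LN319 libraries (-3.41), and *EGLN3*, an oxygen-sensing prolyl hydroxylase, at 64, 60.4 and 63.1 TPM in the LN319 libraries and 0.778, 1.46 and 1.17 TPM in the LN229 libraries (5.60). Of 5 metallothioneins tested, 2 were called in each direction, with *MT2A* at 4357, 5864 and 4870.2 TPM in the LN229 libraries and 804, 732 and 700.0 TPM in the LN319 libraries and *MT1E* at 20, 30.1 and 25.7 TPM in the LN229 libraries and 0, 0.14 and 0 TPM in the LN319 libraries. Of 22 heat shock proteins and chaperones, 6 were called higher in LN319 and 2 higher in LN229, a share of 36.4% that is near the 37.7% of all genes. Among them were *HSPA1A* (1.53) in LN319 and *HSPA6* (-1.73) in LN229, both of the inducible HSP70 group.

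The differences were next arranged by position in the genome, using gene starts of Gencode v44 (hg38), which matched 15464 of the tested genes (83.1%). The start of a gene is here its lower coordinate, whatever its strand. Chromosomes differed in their medians. Chromosome 7, which carries *TRA2A*, had a median difference of -0.87, with 41.5% of 721 genes called higher in LN229, and chromosome 20 had a median of -0.80 with 36.2% of 423. Chromosome 14 had a median of 0.76, with 37.4% of 545 genes called higher in LN319, and chromosome 17 one of 0.63 with 32.7% of 955. Chromosome 3, which carries *TRA2B*, was close to the median of all genes, at 0.05. Within 5 Mb of *TRA2A*, 31 of 43 genes were called higher in LN229 and 5 higher in LN319, with a median of -1.48, so *TRA2A*, with its difference of -0.14, was closer to 0 than the median of the genes around it. Within 5 Mb of *TRA2B*, 18 of 63 genes were called higher in LN229 and 13 higher in LN319, with a median of -0.02, which is smaller than the 0.10 and 0.20 by which other scalings moved the median of all genes.

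The genes right around *TRA2B* were nevertheless nearly all higher in LN229. In a stretch from 0.5 Mb below to 2.5 Mb above its start, whose bounds were chosen after the values were seen, 15 of 16 protein-coding genes were called higher in LN229 and 1 higher in LN319, with a median of -2.32. In the 2.5 Mb below this stretch, 1 of 29 genes was called higher in LN229 and 5 higher in LN319, and in the 2.5 Mb above it 0 and 3 of 5, with medians of 0.48 and 3.45. *TRA2B* lies within the stretch, and its own difference of -1.45 was smaller in size than the median of its neighbours. *IGF2BP2*, an RNA binding protein of fetal tissue, was at 136, 95.9 and 95.3 TPM in the LN229 libraries and 4.41, 7.1 and 7.47 TPM in the LN319 libraries (log2 difference -4.21), and *ETV5*, a transcription factor downstream of growth factor signalling, at 85.1, 71.4 and 70 TPM in the LN229 libraries and 9.8, 9.75 and 9.08 TPM in the LN319 libraries (-3.07). *EIF4A2*, a helicase of translation initiation, was at 236, 209 and 202 TPM in the LN229 libraries and 69.9, 71.4 and 61 TPM in the LN319 libraries (-1.78), *RFC4*, of the clamp loader of replication, at 55.3, 94.2 and 93.1 TPM in the LN229 libraries and 19.9, 20.6 and 19.1 TPM in the LN319 libraries (-2.09), and *DNAJB11*, a chaperone of the endoplasmic reticulum, at 182, 154 and 149 TPM in the LN229 libraries and 29, 32.9 and 31.2 TPM in the LN319 libraries (-2.48). *EIF4A2*, *RFC4* and *DNAJB11*, of general cell functions, were lower in each LN319 library, as were *IGF2BP2* and *ETV5*, and *BCL6* (-2.54) and *LPP* (-2.73) at the far end. *SST*, described above, was the exception. The genes of the stretch are named because of where they lie. The paper names LN319 among the *TRA2A*-dependent lines with the lowest *TRA2B* copy numbers. It reports no significant difference in TRA2B protein between dependent and independent lines. From public data on many cell lines, it also describes *TRA2B* mRNA as similar in the dependent and independent groups. Several dependent lines were at the low end for this mRNA in the paper. Independent lines with as little or less were found too, so the paper does not take low *TRA2B* mRNA as enough to predict dependency. DNA copy number, chromatin and protein were not analysed here, and the part of copy number and chromatin in these values was not tested.

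**Figure D5:**
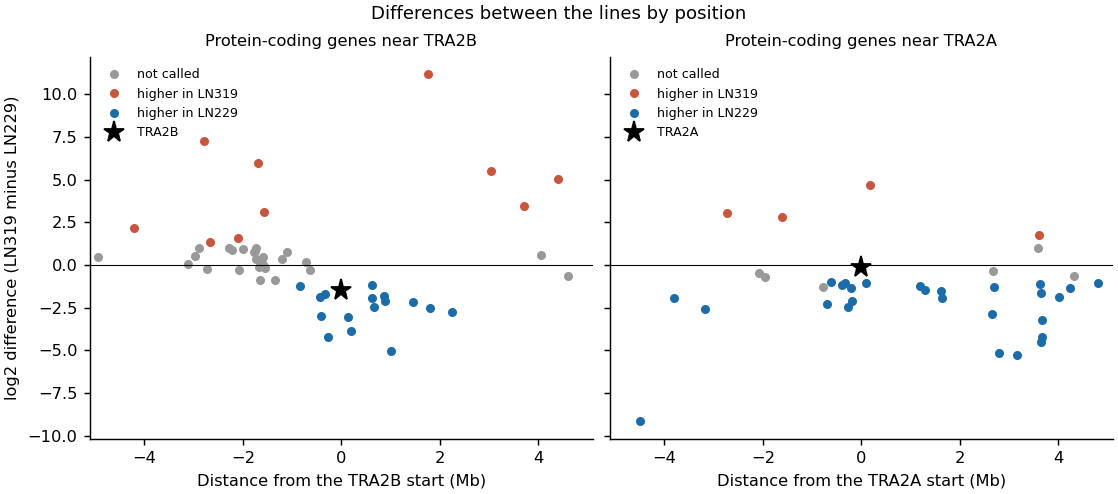
log2 difference (LN319 minus LN229) of protein-coding genes against their distance in Mb from the start of TRA2B (left) or TRA2A (right), which are drawn as stars. Between -0.5 and 2.5 Mb of TRA2B all points but SST lie below 0, and around TRA2A most points lie below 0 while TRA2A is at -0.14.

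Some of the widest differences also came with those of neighbouring genes, which were likewise looked at after the values were seen. Next to *CDKN2C*, *FAF1*, for a FAS-associated factor, was at 83.7, 76.3 and 85.4 TPM in the LN319 libraries and 0.189, 0.0836 and 0.131 TPM in the LN229 libraries (8.39), and *DMRTA2* had a difference of 6.47. *RNF11*, also near *CDKN2C*, was expressed in both lines. It was at 55.6, 47.8 and 49.4 TPM in the LN229 libraries and 120.3, 118 and 139 TPM in the LN319 libraries. *TTC39A*, just beyond *RNF11*, was at 11.5, 11.9 and 14.6 TPM in LN319 and 0.0495, 0.0398 and 0.621 TPM in LN229 (5.61). Next to *PARK7*, *ERRFI1*, a feedback inhibitor of *EGFR*, was at 36.5, 37.9 and 38.8 TPM in the LN229 libraries and 0, 0.0155 and 0 TPM in the LN319 libraries (-8.55). *PER3* (-1.62) and *SLC45A1* (-2.02), also near *PARK7*, were called higher in LN229. Their means were 14.3 and 2.77 TPM in LN229 and 4.96 and 0.65 TPM in LN319. Other neighbours of *PARK7* had the opposite order at low levels. These were *TNFRSF9*, a receptor of the TNF family, which starts nearer to it (2.25), and *UTS2*, for the peptide urotensin 2 (4.51). *VAMP3* was expressed in both lines, at 62.2, 68 and 64.4 TPM in the LN229 libraries and 45.8, 47.1 and 51.2 TPM in the LN319 libraries. Thus *CDKN2C*, *FAF1*, *DMRTA2* and *TTC39A* were below 1 TPM in every LN229 library, and *PARK7*, *ERRFI1* and *SLC45A1* in every LN319 library. *RNF11*, *PER3* and *VAMP3*, also close by, were expressed in both lines, and *TNFRSF9* and *UTS2* had the order opposite to *PARK7*.

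The comparison was then repeated in the TRA2B-OE Control KO libraries of the 2 lines, which share no library with those above. *TRA2B*, the cDNA included, was at 733, 941 and 931 TPM in LN229 and 807, 871 and 704 TPM in LN319, so the lines overlapped. Summed *TRA2A* and *TRA2B* were at 952 ± 114 TPM in LN229 and 889 ± 85.9 TPM in LN319 (SD, n = 3; exact two-sided permutation p = 0.5), and the ratio of *TRA2B* to *TRA2A* was 10.4 ± 1.90 and 8.39 ± 0.755 (exact two-sided permutation p = 0.2). *TRA2A* was at 87.9, 78.2 and 84.9 TPM in LN229 and 97.3, 94.8 and 91.6 TPM in LN319. The rest of the expression difference was present with similar breadth. Of 19025 genes tested, 7349 (38.6%) were called, 3811 (20.0%) higher in LN319 and 3538 (18.6%) higher in LN229. Of 18039 genes tested in both sets, 5952 were called in the same direction, which is 88.3% of the calls with luciferase and 85.8% of those with TRA2B-OE, and 1 was called in opposite directions. While all calls of the splicing regulator lists named above recurred, other lists recurred in part. Among these, 20 of 26 calls of interferon-stimulated genes, 18 of 24 of ligands and 25 of 29 of collagens recurred. So did 35 of 40 calls of other patterning factors and 5 of 7 of centrosome and centriole genes. In the stretch around *TRA2B*, 14 of the 16 genes were called higher in LN229 with TRA2B-OE, with a median of -2.08.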

How the data were processed

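Per the paper's methods and the labels, total RNA was extracted with a bead-based kit, poly(A) libraries that keep strand were sequenced as 150 bp read pairs, and transcript levels were quantified by the authors with kallisto 0.48.0 on Gencode 34 (hg38). The authors deposited gene TPM values, 1 table per cell line, not scaled between libraries and without counts. Depth is therefore unknown, and precision is given only as the spread of 3 libraries. Clone names and 25 date-like names among the tested genes point to another name table, which was not settled.

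The 2 tables were joined by gene name and each column was rescaled to 1000000 (deposited sums over shared names 957993 to 962762). Levels in the text are these values. For tests, genes at 1 TPM in at least 3 of 6 libraries were brought to a common level with the mean log ratio to a reference library (each gene weighted equally, after trimming 30% by ratio and 5% by abundance), and log2(TPM + 0.1) was fitted in R 4.3.3 with limma 3.58.1 (empirical Bayes with a mean-variance trend, two-sided, line as the only term), since the authors' limma-voom needs counts. Values with a single number per library were compared by an exact permutation test. No library pair was identical. Gene lists carry no test and are described by counts and medians. Named genes were the TRA2 genes and RT-PCR targets, up to 4 members per list with the largest called difference without overlap, all SR proteins, their kinases, astrocyte markers, G1/S regulators and driver genes where needed, the 12 largest log2 differences of protein-coding genes with a mean of at least 10 TPM and the 5 largest TPM differences in each direction. EPCAM, CD3E, AIF1, the untested astrocyte markers, PDGFRA, MBP and DLL3 as oligodendrocyte list members, and genes named for their position were chosen after their values were seen. The members, lists and tests were chosen with earlier results of these data known. LN319 against LN229 with luciferase was simulated in 10 draws (17600 to 17695 genes tested). Of genes changed 1.5-fold, which is below the size a call requires, 0 of 500 were called. At larger changes 298 of 500 were called at 2.5-fold, 387 of 500 at 4-fold and 440 of 500 at 8-fold (40 to 47 of 50 in a draw). Calls in the wrong direction were 0, and 3 to 7 unchanged genes were called in a draw. Each simulated gene was centred on its mean log2 level over both lines. These rates therefore do not describe genes that are near 0 in 1 line and high in the other. A gene among the 12 largest differences, a gene list, further genes and a guide are not reported here. Alternatives were other pseudocounts, filters, scalings and thresholds, all 30 libraries of the 2 lines in the fit, a replicate block and each library left out. Python 3.11.15, pandas 2.3.3, numpy 2.4.6, scipy 1.17.1 and matplotlib 3.10.9 were used for the rest.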

Additional observations from a re-analysis of the deposited data

Results flagged for a closer look

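In the 12 Control KO libraries the difference between the lines was also tested for a change with TRA2B overexpression. Of 20523 genes tested in 1 limma fit, added after seeing the data, 18 differed between luciferase and TRA2B-OE in the size of their LN319 minus LN229 difference (Benjamini-Hochberg adjusted p under 0.05), and 1643 had an unadjusted p under 0.05. The genes among them that are named in the report are given here as values. For CD74 the difference between the lines was 2.09 higher on the log2 scale, that is closer to 0, with TRA2B-OE than with luciferase. Its mean in LN319 was 18.2 TPM with luciferase and 69.1 TPM with TRA2B-OE, and in LN229 3729 and 3192 TPM. For HLA-DRA this change was 2.5, with means of 10.1 and 45.3 TPM in LN319 and 1190.0 and 917 TPM in LN229. For HLA-DRB1 it was 2.19. CD74, HLA-DRA and HLA-DRB1 belong to the same MHC class II pathway, and in LN319 they stayed far below their level in LN229. For TGFBI it was 1.82. For TRA2B, which the cDNA supplies in both lines, it was 1.19 (limma, adjusted p = 0.0308).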

How the results depend on the processing

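With a minimum of 5 TPM, 4541 genes differed with luciferase (2301 higher in LN319, 2240 higher in LN229) and 4773 with TRA2B-OE (2455 and 2318), because fewer genes were tested. With no minimum difference the counts were 12553 (6307 and 6246) and 12894 (6492 and 6402). The difference of TRA2A was 0.051 without mitochondrially encoded genes in the rescaling, the only comparison that turned its sign. The difference of TRA2B was -1.45 in the main fit and smaller in size with other scalings. It was -1.34 with rescaling alone, -1.33 with quantile normalization and -1.26 without mitochondrially encoded genes. Near TRA2B the median was -0.18 within 2 Mb and 0.30 within 10 Mb, with 62.2% and 40.4% of genes below 0, against 50.8% within 5 Mb. Near TRA2A it was -1.32 and -1.25, with 88.9% and 85.5% below 0. CNTRL, which was not called, ranged from -0.0197 to 0.0774 when single libraries were left out. Leaving out 1 library gave 6842 to 7129 calls with luciferase (3413 to 3626 higher in LN319 and 3417 to 3503 higher in LN229) and 7093 to 7465 with TRA2B-OE (3628 to 3922 and 3462 to 3600), differences of -0.19 to -0.11 for TRA2A and -1.53 to -1.41 for TRA2B, a log2 ratio of -1.37 to -1.28 and a summed level of -0.83 to -0.74. Replicate numbers did not pair the libraries, with correlations of the deviations of 0.0337, -0.0169 and -0.00325 between libraries of the same number. With the replicate block 7076 genes were called, TRA2A had an adjusted p of 0.169 and TRA2B one of 3.04e-04 (limma). Rescaling alone moved the median of all genes by 0.10, leaving out mitochondrially encoded genes by 0.20 and using no filter by -0.16, and the calls split into 3982 higher in LN319 and 3120 higher in LN229, and 4436 and 2937, in the first and second of these. Of the values of named genes under all alternatives, 2913 kept their direction and side of the threshold, 16 passed it anew, 30 fell short of it and 2 changed sign. Those that fell short belonged to CDK4, CDKN1C, CHAF1B, HSPB6, MDM4, MT-CYB, NDRG2, RRM2, TYMS and U2AF1, and the cause was not tested. Depth, the use of 1 line per class and 1 table per line limit all values.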
